A study of Sus scrofa domesticus with 4 samples.

Results

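The genes described here mark T cells and natural killer (NK) cells, and were measured in pig endometrium, the lining of the uterus. The 9 genes listed were CD3D, CD3E, CD3G, CD4, CD8A, CD2, GZMA, GZMB and PRF1. A member was any non-control array probe whose transcript identifier mapped to 1 of these symbols in RefSeq. The rule found 14 probes of 8 genes among 43603 non-control probes, of which 6700 probes of 3029 genes could be named in this way. PRF1, which encodes the pore-forming protein perforin, had no matching probe and was not analysed here. CD3E and CD2 had 1 probe each and the other 6 genes had 2, called probe 1 (the brighter) and probe 2. The probe sequences were not used here.

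The tissue came from 4 mature gilts (Large White x Polish Landrace, 7 to 8 months old) on days 15 to 16 of gestation. Explants from the middle of the uterine horns, 3 mm thick and about 100 mg, were preincubated for 2 h in 2 mL of medium M199 and then cultured for 24 h with 10 nM orexin B or with no addition. Orexin B is a neuropeptide that acts through the orexin receptors, and the comparison asks how endometrial gene expression differs after exposure to it. On each of 4 two-colour Agilent arrays, 825 ng of cRNA from a treated and 825 ng from an untreated culture were hybridised together, 1 dyed with Cy5 (red) and the other with Cy3 (green). Both groups share the animals' breed, pregnancy stage and culture, and no uncultured tissue or other dose was analysed here. The labels do not tie an array to an animal, so the spread between arrays may be between animals or technical, and p-values measure only that spread.

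T cells recognise antigen through a receptor whose signal is passed on by the CD3 chains, and the co-receptors CD4 and CD8 divide them into helper and cytotoxic cells. Cytotoxic T cells and NK cells kill their targets by releasing granules that hold perforin and granzymes. NK cells and T cells are both found in the pig endometrium around implantation, next to much more abundant epithelial and stromal cells. In a whole explant, a lower signal from such a gene can come from fewer of the cells or from less RNA in each cell, and these cannot be told apart.

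By the label of each sample, orexin B RNA carried Cy5 on arrays 1 and 3, and the dyes were swapped on arrays 2 and 4. The labelling protocol that all samples share could mean instead that Cy3 always marked the untreated culture. The authors' value table follows the swap of the sample labels: its values ran with log2 Cy5 over Cy3 on arrays 1 and 3 and against it on arrays 2 and 4. Arrays 1, 3 and 4 were scanned on the same day and array 2 on another. Between 27.8% and 36.2% of all non-control spots were well above background in Cy3, and 46.8% (array 2) to 86.7% in Cy5. No spot was saturated. The epithelial marker EPCAM, an adhesion molecule, was among the bright probes, with log2 levels of 14.97, 14.13, 14.61 and 14.58 on arrays 1 to 4.

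Detection of the T and NK cell genes followed the dye more than the treatment. The scanner software flags a spot as well above background by its own rule, and a signal above the local background is not enough. In Cy3 the median local background was 38 to 54 on the 4 arrays. Negative-control spots had medians of 183 to 383 there, and 0% to 1.31% of them passed. In Cy5, 12, 10, 14 and 14 of the 14 member probes passed on arrays 1 to 4, a total of 50 of 56 measurements (89.3%). In Cy3, 2, 6, 2 and 3 of the 14 passed, a total of 13 of 56 (23.2%). In Cy5, 9 of the probes passed on all 4 arrays, against 46.4% of all probes. GZMB probe 1 and GZMB probe 2 alone passed in Cy3 on all 4 arrays, where 25.6% of all probes did. In Cy3, 8 probes, among them CD2, CD3E and both probes of CD3D and of CD4, passed on no array. The share of all probes that passed on no array was not counted. Split by treatment, which was balanced over the dyes, 35 of 56 treated measurements (62.5%) and 28 of 56 untreated ones (50%) passed. Of all non-control spots, 82.9%, 36.2%, 86.7% and 33.8% passed in the treated RNA of arrays 1 to 4. In the untreated RNA the shares were 30.4%, 46.8%, 27.8% and 82.4%. Without array 2, 95.2% of the members' Cy5 and 16.7% of their Cy3 measurements passed.

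**Figure D1:**
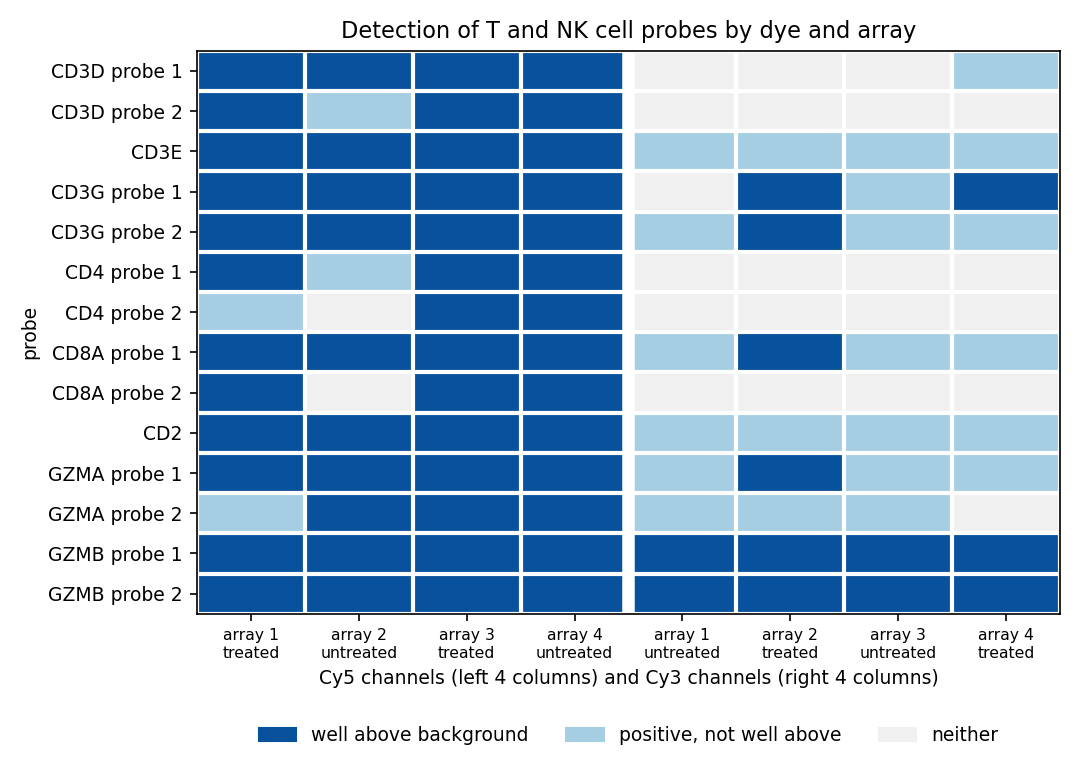
Background call of each of the 14 member probes (vertical axis) in each dye on each array (horizontal axis). Colours mark a spot as well above background, as positive by the scanner software only, or as neither. In Cy5 the number of probes well above background lies between 10 and 14 on every array, and in Cy3 between 2 and 6.

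The negative-control spots gave the floor of each channel. None of 153 such spots on each array passed in Cy5, which allows a share of up to 1.96% by counting error alone, and 1.31% passed in Cy3 on array 2. Their median raw signal was 63 to 94 in Cy5 but 375.5, 183, 376 and 383 in Cy3 on arrays 1 to 4. The raw median signal of GZMB probe 1 stood well clear of both, at 1407, 8788.5, 2748 and 4873 in Cy5 and 769, 3533.5, 1014.5 and 1994.5 in Cy3. CD4 probe 2, at the other end, read 120, 66.5, 165 and 134 in Cy5 and 303, 170, 376 and 386 in Cy3, below the negative controls' 95th percentile in Cy5 on arrays 1 and 2, above it on arrays 3 and 4 (117.5 and 108), and below it in Cy3 on every array. In Cy3, 9, 9, 12 and 9 of the 14 member probes were above the 95th percentile of the negative controls on arrays 1 to 4. The share of all probes above it was not counted.

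Ratios are given below as log2 of treated over untreated, with every array turned the same way, so that a value below 0 means a lower signal in the orexin B culture. The test was limited to probes that passed the background call in the RNA of at least 1 condition on each of the 4 arrays. CD3G probe 1, GZMB probe 1 and GZMB probe 2 were 3 of the 13783 probes that met this. Passing it depends on the level, so these 3 probes do not stand for the other 11, whose ratios are described first and which were fitted only in an alternative without the filter. In limma, 0 of 13783 tested probes (0%) were called lower and 0 (0%) higher at an adjusted p below 0.05. The smallest adjusted p was 0.999, and 495 probes had an unadjusted p below 0.05, 258 of them lower (1.87%). None of the 3 tested member probes was therefore called.

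The CD3 chains carry the signal of the T cell receptor into the cell. CD3D probe 1 had log2 ratios of -0.35, -0.68, -0.32 and 0.12 on arrays 1 to 4, with a mean of -0.31 ± 0.33 (SD, n = 4). CD3D probe 2 had ratios of 0.06, -0.27, -0.36 and -0.17, with a mean of -0.18 ± 0.18 (SD, n = 4). Each probe was lower on 3 of 4 arrays, but the exception was array 4 for the first and array 1 for the second. The scanner software's own CD3D ratios had errors of 0.92 to 1.74, and only that of probe 1 on array 2 (-1.55 with an error of 0.92) exceeded its error.

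CD3E had log2 ratios of 0.27, -0.65, 0.39 and -0.74 on arrays 1 to 4, with a mean of -0.18 ± 0.59 (SD, n = 4). The signs split by dye, higher where the treated RNA was red and lower where it was green. CD3G probe 1 had ratios of -0.03, -0.65, 0.40 and -0.80, and the same split apart from array 1, which was near 0. Its fitted ratio was -0.27 ± 0.18 (SE), with a 95% interval from -0.69 to 0.15 and an adjusted p of 0.999 in limma (unadjusted p 0.177). The dye term of that fit, log2 of Cy5 over Cy3, was 0.46 and so larger than the treatment term. With the scanner software's ratios, and with the authors' value table, the CD3G probe 1 ratio was 0.09, on the other side of 0. CD3G probe 2 had ratios of -0.19, 0.77, -0.73 and 0.19, the opposite sign to probe 1 on 3 of 4 arrays. The probes of CD3G differed by up to 1.43 on 1 array, so no direction is given for the gene.

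CD4 is the co-receptor of helper T cells and is not confined to them. CD4 probe 1 had log2 ratios of -0.09, -0.14 and -0.17 on arrays 1, 2 and 4, with a mean of -0.13 ± 0.04 (SD, n = 3). Its spot on array 3 was an outlier by the scanner software and was left out. CD4 probe 2 had ratios of 0.05, -0.15, 0.33 and -0.14 on arrays 1 to 4, with a mean of 0.02 ± 0.23 (SD, n = 4). The scanner software's own CD4 ratios had errors of 1.04 to 2.07 and none exceeded its error, so a difference in CD4 was not detectable at these signals.

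CD8A encodes the co-receptor chain of cytotoxic T cells and is also carried by many pig NK cells. CD8A probe 1 had log2 ratios of 0.55, -0.61, -0.41 and -0.77 on arrays 1 to 4, with a mean of -0.31 ± 0.59 (SD, n = 4). CD8A probe 2 had ratios of 0.83, -0.31, 0.53 and -0.45, with a mean of 0.15 ± 0.63 (SD, n = 4). The probes shared their sign on 3 of 4 arrays and parted on array 3, by 0.94. Both means are smaller than their spread, and the mean signs differ.

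CD2 is an adhesion molecule of T and NK cells that binds CD58 or CD48 on other cells. Its log2 level in the untreated RNA was 8.25, 9.56, 8.17 and 8.78 on arrays 1 to 4, and in the treated RNA 7.92, 8.63, 8.09 and 8.29. The treated level was the lower on every array, by ratios of -0.33, -0.94, -0.08 and -0.49, although the ranges of both groups overlap. The mean was -0.46 ± 0.36 (SD, n = 4), the lowest among the 14 member probes. CD2 was detected in the treated RNA on 2 arrays and in the untreated RNA on 2, each time in Cy5, so it was outside the tested set. In limma without the filter its ratio was -0.46 ± 0.14 (SE), with an unadjusted p of 0.0182 and an adjusted p of 0.926. The scanner software's own ratios were 0.06, -1.63, -0.07 and -1.96, with a fitted value of -0.90. They were lower on 3 of 4 arrays, with errors of 1.09, 0.31, 1.02 and 0.64 on arrays 1 to 4. On arrays 1 and 3, where the treated RNA was red, the ratio was smaller than its error. Only on arrays 2 and 4, where the treated RNA was green, did it exceed its error.

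Granzymes are the serine proteases of cytotoxic granules. GZMA probe 1 had log2 ratios of -0.05, -0.83, 0.06 and -0.17 on arrays 1 to 4, with a mean of -0.25 ± 0.40 (SD, n = 4). GZMA probe 2 had ratios of -0.18, -0.39, -0.61 and 0.04, with a mean of -0.28 ± 0.28 (SD, n = 4). Both means were lower, with 3 of 4 arrays each, and the probes had the same sign on arrays 1 and 2 only.

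GZMB, which encodes granzyme B, was the best measured member. GZMB probe 1 had log2 levels of 9.90, 12.78, 10.48 and 11.81 in the untreated RNA of arrays 1 to 4, and 9.72, 12.17, 10.32 and 11.26 in the treated RNA. GZMB probe 2 had levels of 9.60, 12.19, 9.75 and 10.44 untreated, and 9.08, 11.77, 9.48 and 10.32 treated. Both probes were lower in the treated RNA on each of the 4 arrays, while the arrays differed far more from each other than the cultures on an array did. The ratios of probe 1 were -0.18, -0.61, -0.16 and -0.55, and those of probe 2 were -0.52, -0.42, -0.27 and -0.12. Probe 1 had the lower ratio on arrays 2 and 4 and probe 2 on arrays 1 and 3, with at most 0.44 between them. The scanner software's error of a GZMB ratio was 0.21 to 0.28, smaller on every array than that of any other member, and its ratios were below 0 for both probes on all arrays.

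In limma, the fitted log2 ratio of GZMB probe 1 was -0.38 ± 0.17 (SE), with an adjusted p of 0.999 and an unadjusted p of 0.0597. This is a level 1.30 times lower in the treated RNA, with a 95% interval from 1.71 times lower to 1.01 times higher. For GZMB probe 2 the ratio was -0.33 ± 0.18 (SE), with an interval from -0.75 to 0.08, an adjusted p of 0.999 and an unadjusted p of 0.102. Leaving out each array in turn gave -0.39 to -0.36 for probe 1 and -0.41 to -0.26 for probe 2. With Cy5 taken as the treated RNA on every array, the ratio of GZMB probe 1 becomes 0.21 (adjusted p = 0.629), since that reading takes the difference between dyes for the treatment.

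**Figure D2:**
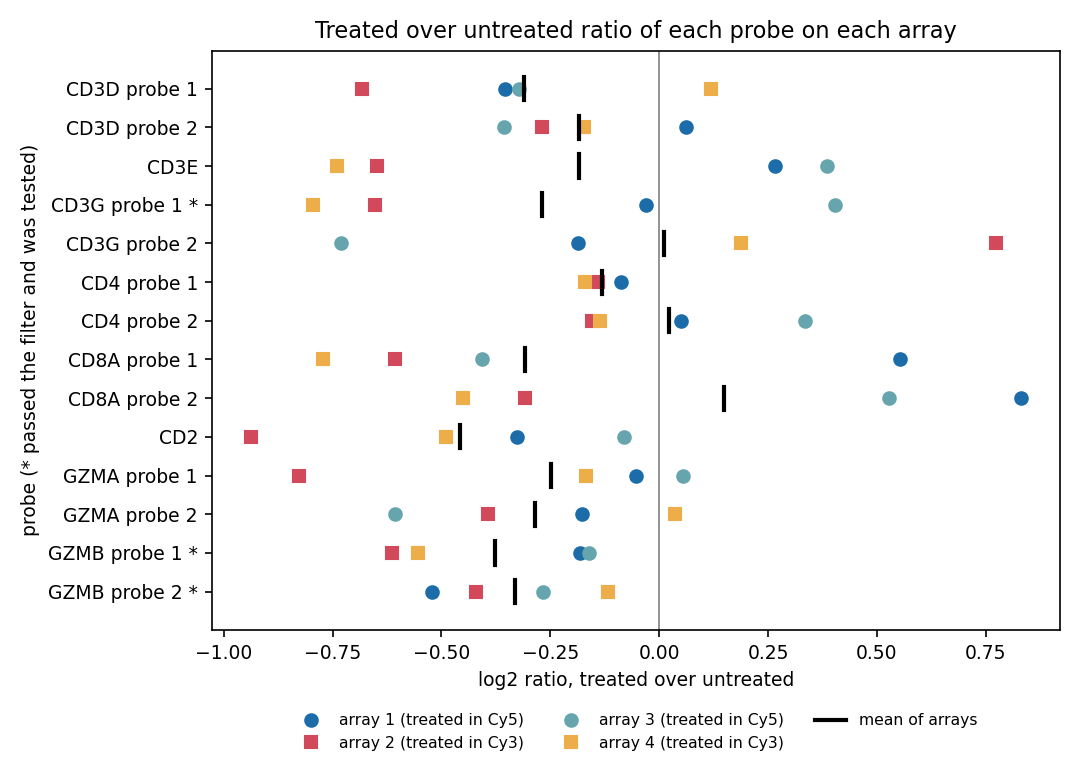
Log2 ratio of treated over untreated (horizontal axis) for each of the 14 member probes (vertical axis), with 1 point per array and the mean of the arrays. Both GZMB probes and CD2 have all 4 points below 0; the points of CD3E, CD3G and CD8A spread to both sides.

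Over the 14 probes, 11 had a fitted ratio below 0 in limma without the filter (78.6%), against 47.4% of all 43603 non-control probes. The median was -0.26, beside 0.01 for all probes. Without array 2 it was -0.17, with 12 of 14 below 0, against 49.5% of all probes. Leaving out 1 array brought GZMA probe 1 to -0.08 and CD3D probe 1 to -0.11 (both without array 2), CD8A probe 1 to -0.07 and CD3D probe 2 to -0.08 (both without array 3). The probes are not independent, since 6 genes have 2 of them and all share the same RNA. Of the 13 member probes measured on 4 arrays, CD2 and both GZMB probes were lower on 4 of 4 (23.1%), against 3.2% of all such probes. Without array 2, 3 of 13 were lower on the 3 remaining arrays, against 7.28%. None of the 14 had an adjusted p below 0.05 in the limma fit without the filter (all probes: 0%). In that fit 3 (CD2, GZMB probe 1 and GZMB probe 2) had an unadjusted p below 0.05, where 1.62% of all probes were lower at that level. In the main limma fit, with the filter, neither GZMB probe did, at 0.0597 for probe 1 and 0.102 for probe 2. The ratios are the same in both fits, and the standard errors are smaller without the filter. With the scanner software's ratios 10 of 14 were lower, against 34.3% of all probes.

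The arrays did not contribute evenly. On array 2, 13 of the 14 member probes were lower, and their median ratio was -0.51. On arrays 1, 3 and 4 the counts were 9 of 14, 8 of 13 and 11 of 14, and the medians were -0.07, -0.16 and -0.17. The median over all probes was between -0.01 and 0.02 on every array. These counts rest on the swap in the sample labels. With Cy5 taken as the treated RNA throughout, 13 of 14 would be higher on array 2 and 11 of 14 on array 4. A fitted ratio below 0 would then be found in 4 of 14, against 48.8% of all probes. Array 2 was scanned on its own day and had the fewest spots detected in Cy5; the part of either in the lower ratios was not tested.

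The dye term was larger in size than the treatment term in 7 of the 14 member probes. The share of all probes with this was not counted, so the count is not set apart from theirs. The median dye term of the members was 0.19 (Cy5 brighter), against 0.01 over all probes. It exceeded 0.4 in size for 4 probes, namely CD3E (0.51), CD3G probe 1 (0.46), CD8A probe 2 (0.53) and CD3G probe 2 (-0.47), where 17.4% of all probes did. CD3E, CD4 probe 2 and CD8A probe 2 were brighter in Cy5 on 4 of 4 arrays, against 15.4% of all probes. The dye term of GZMB probe 2 was -0.06, small beside its treatment term, and that of GZMB probe 1 was 0.21.

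**Figure D3:**
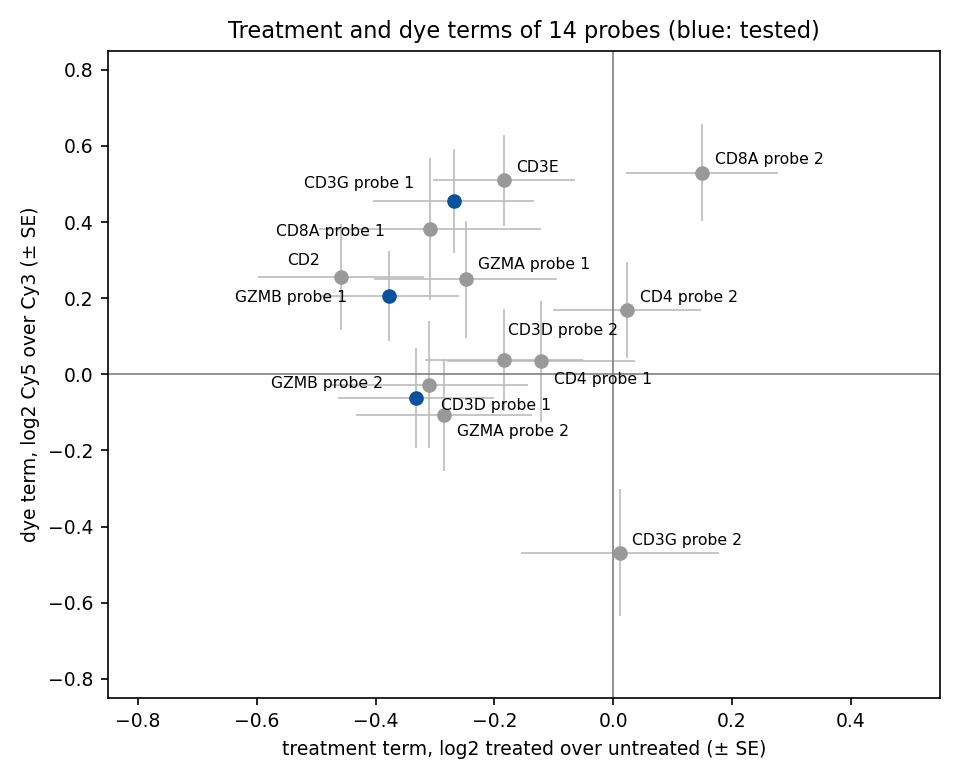
Treatment term (horizontal axis, log2 treated over untreated) and dye term (vertical axis, log2 Cy5 over Cy3) of the 14 member probes from limma without the filter on dim probes, with bars of 1 SE. The 3 tested probes are blue; CD3E, CD3G probe 1 and CD8A probe 2 lie at dye terms of 0.46 to 0.53, and CD3G probe 2 lies at -0.47.

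The level of the granzyme B transcript differed widely from array to array. After scaling between arrays, the untreated level of GZMB probe 1 spanned 2.88 on the log2 scale, or 7.37-fold, with a mean of 11.24 ± 1.30 (SD, n = 4). GZMB probe 2 spanned 2.59, or 6.01-fold. Averaged over both cultures, the range of probe 1 was 2.67, larger than that of 99.5% of the tested probes, whose median range was 0.78. Within each array, GZMB probe 1 stood at the percentiles 78.8, 93.8, 83.5 and 90.0 of all probes on arrays 1 to 4, so the difference between arrays was also one of rank. Without array 2 the range was 1.73 for probe 1 (97.6% of tested probes had a smaller one) and 1.04 for probe 2 (83.7%).

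An order of arrays was noticed in the GZMB values and then looked for in the other members. From low to high, the mean level of both GZMB probes ran over arrays 1, 3, 4 and 2. Of the 11 other member probes measured on 4 arrays, CD3G probe 1, CD8A probe 1 and CD2 had the same order, which 4.62% of all probes and 4.95% of the tested ones had. Array 2 held the highest level in 9 of 13 member probes, and in 7 of the 11 other than GZMB, against 31.8% of all probes. These counts depend on the scaling between arrays. With no scaling, the GZMB probes alone kept the order (0.663% of all probes had it) and alone were highest on array 2 (5.53% of all probes were). The range was then 2.52 and 2.39 for the GZMB probes. It was 1.73 with scaling and 1.04 without for CD8A probe 1, and 1.40 and 1.11 for CD3G probe 1. Array 2 differs in its scan day and in Cy5 detection, and arrays 2 and 4 are those with the treated RNA in Cy3; animal, scan and dye orientation cannot be told apart as sources of this order.

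**Figure D4:**
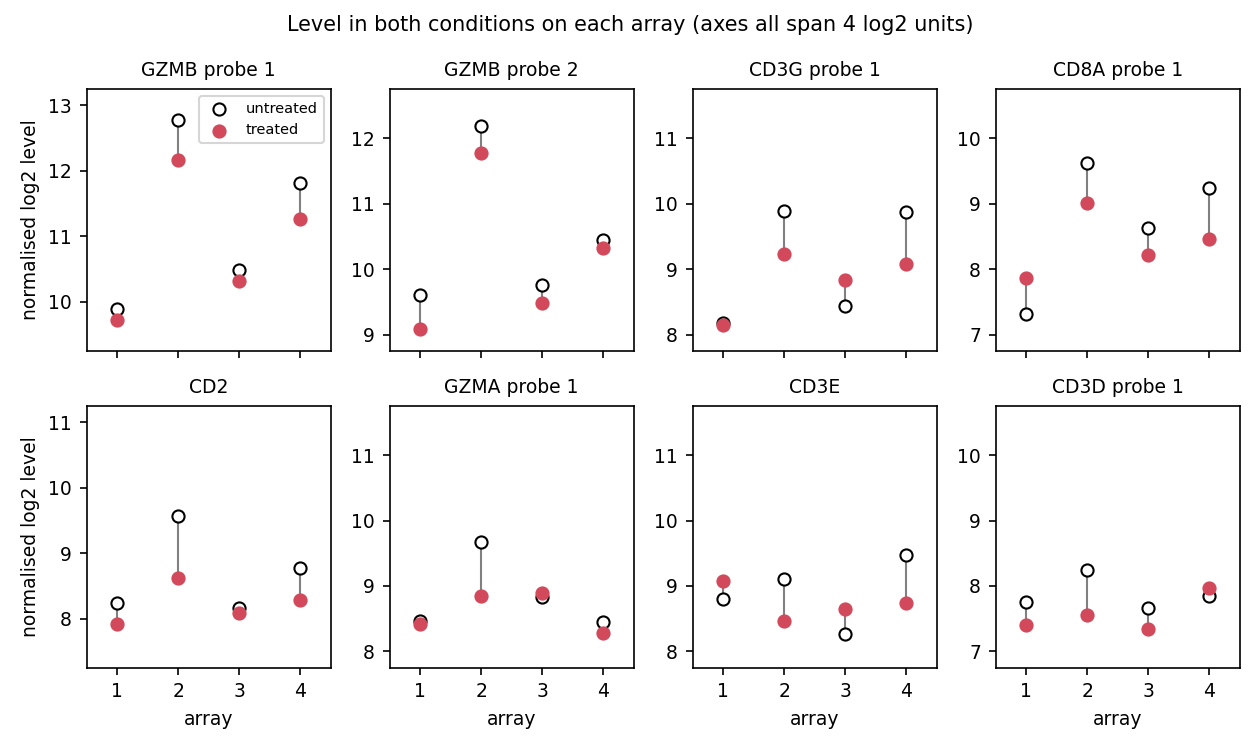
Normalised log2 level (vertical axis) of 8 member probes in the untreated (open) and treated (filled) RNA of each array (horizontal axis), with a line joining the cultures of an array and vertical axes that span the same length. For GZMB probe 1 the untreated level is 9.90 on array 1 and 12.78 on array 2, while the cultures of 1 array differ by at most 0.61.

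Related genes of T and NK cells were listed by role, 95 in all, of which 53 had a probe and 20 had a tested one. Of these, 16 had a fitted ratio below 0 and 4 above, with a median of -0.33 beside 0.02 over all tested probes (46.9% of them below 0). None was called (0% over all tested probes), while 7 (35%) were lower at an unadjusted p below 0.05, where 1.87% of tested probes were. Lower on 4 of 4 arrays were 7 of 20 (35%), against 3.67% of tested probes. Their median ratio was -0.06, -0.36, -0.27 and -0.47 on arrays 1 to 4, with array 4 the lowest. The direction of the list's median held with the scanner software's ratios and without each array in turn.

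Of the receptor's signalling genes, CD247, the zeta chain of the T cell receptor complex, had a fitted log2 ratio of -0.33 ± 0.20 (SE) and the kinase FYN one of -0.21. For CD247 the array ratios were 0.04, -1.24, 0.27 and -0.40, split by dye like those of CD3E. All 5 tested NK receptor genes were below 0, with a median of -0.33. They were the activating receptor KLRK1 (-0.26), the Fc receptor FCGR3A (-0.66), the granule membrane protein NKG7 (-0.23) and the signalling adaptors TYROBP (-0.33) and HCST (-0.47). FCGR3A and TYROBP are also expressed by macrophages.

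Among 4 surface genes tested, the chemokine receptors CCR7 (-0.81) and CXCR4 (-0.48) and the CD2 ligand CD48 (-0.56) were lower on 4 of 4 arrays. The other CD2 ligand, CD58, was at 0.07. Of the granule genes, STX11, a syntaxin of granule release, was at -0.41 and the lysosomal membrane protein LAMP1 at -0.10. GZMH, GZMK and GZMM had probes on the array but none that was tested.

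Of 7 secreted factors tested, 4 were below 0 and 3 above. The chemokines CCL5 and CCL4, which T and NK cells release, had ratios of -0.81 ± 0.23 (SE) and -0.42 ± 0.17 (SE), with all 4 arrays lower. The death ligand TNFSF10 was at -0.57, with array ratios from -1.82 to 0.90. IL15, which sustains NK cells, was at -0.25. TNF (0.02), LTA (0.39) and IL18 (0.53) were above 0. IFNG and FASLG had no tested probe.

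**Figure D5:**
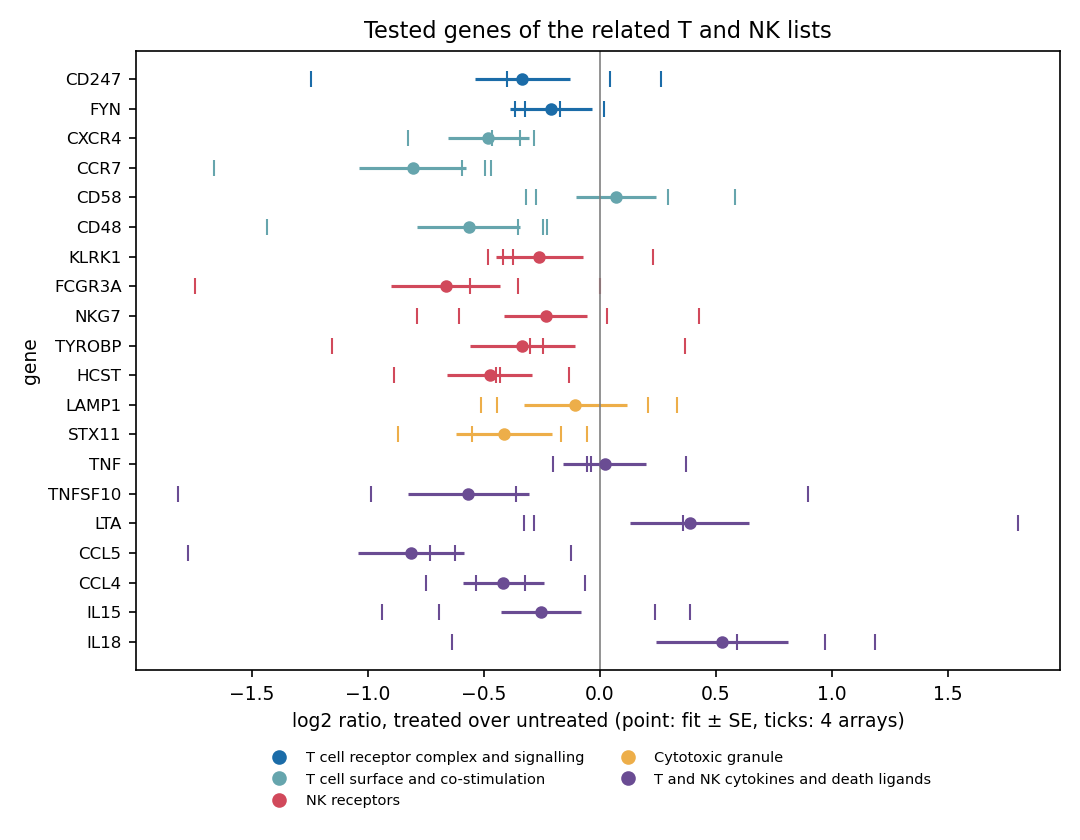
Fitted log2 ratio of treated over untreated (horizontal axis) with a bar of 1 SE to each side for the 20 tested related genes (vertical axis), coloured by list, with a tick for each array. Of the 20 related genes, 16 lie below 0, with CCL5 and CCR7 at -0.81, and none had an adjusted p below 0.05 in limma.

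Markers of other cell types were compared in the same way. The tested macrophage and myeloid genes had 5 of 6 ratios below 0 and a median of -0.51, with AIF1 at -0.59 and FCER1G at -0.39. Their summed level ran from 6415 to 11751 in the treated and from 7679 to 22191 in the untreated RNA. The pan-leukocyte integrin ITGB2 was at -0.49, and 2 of 3 granulocyte and mast cell genes were below 0 (median -0.17). The B cell genes MS4A1 and CD79A had no tested probe, and XBP1, abundant in plasma cells and secretory epithelium, was at -0.41. Epithelial genes had 4 of 6 below 0 (median -0.19), endothelial genes 3 of 3 (median -0.34) and smooth muscle genes 3 of 3 (median -0.21), while all 3 fibroblast genes were above 0 (median 0.20). Leaving out 1 array took several of these medians across 0 or near it: epithelial to 0.13 and granulocyte to -0.02 (both without array 2), endothelial to 0.05 and smooth muscle to 0.02 (both without array 3), and fibroblast to 0.01 (without array 2). ITGB2 read -0.23 without array 4, and the macrophage and myeloid median ran from -0.68 to -0.40. None of these genes was called, and the part of other cell types in the members' ratios was not tested.

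The genes closest to the tested members were found by the root mean square difference over the 4 array ratios, among 1600 named genes, each by its brightest tested probe. Closest to GZMB were the chemokine CCL4, at 0.11, and the fatty acid ligase ACSL1, at 0.12. Closest to CD3G were TPT1 (0.06) and the coagulation factor F8 (0.17). Closest to the mean of both were ACSL1 (0.15), TPT1 (0.16), F8 (0.16), CCL4 (0.17) and RPIA (0.19). Over 4 arrays, 2 of each dye orientation, such a likeness takes in the dye difference of each probe as well.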

How the data were processed

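The 4 deposited scanner files were Agilent Feature Extraction output (version 10.7.3.1, per the file headers; array design 026440). They hold median spot and background intensity per dye, and the deposited log10 ratio with its error, which was converted to log2. The authors' deposited value table holds log2 ratios, with column medians of 0.18, 0.29, 0.01 and 0.03; how these were centred is not given in the sources used here. No mean signal was used.

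In R 4.3.3 with limma 3.58.1, the median signals were background-corrected (normexp, offset 50) and loess-normalised within each array. Control spots had weight 0 and outlier spots were left out. lmFit and eBayes fitted a treatment term and a dye term per probe (2 residual df, 5.09 prior df), with Benjamini-Hochberg adjustment over 13783 probes, threshold 0.05. Levels are Aquantile-scaled log2 values. The fit was run on simulated data whose planted differences were larger than any member's ratio. Its performance at differences as small as the members' was not tried. With 4 arrays the number of arrays limits the precision.

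The members, the gene lists and the tests were chosen with earlier results of these data known. The rule for named genes was every member probe, every tested gene of the related lists, the 2 brightest tested genes of each other marker list, and the nearest genes by array ratios; EPCAM, MS4A1 and CD79A serve as marker checks, and untested genes are named without values. A gene is represented by its brightest tested probe. Identifiers were matched to RefSeq symbols without versions.

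Alternatives were the dye term, the dye reading, background correction, offset, normalisation, scanner ratios, the value table, the filter, gene means, the scan day and leaving out each array. The scan day of 3 arrays is the same fit as leaving out array 2. The RNA had integrity numbers of 8 to 10 and cultures were run in duplicate, per the labels' protocols.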

Additional observations from a re-analysis of the deposited data

How the results depend on the processing

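The count of called probes was 0 under most alternatives in limma. It was 2 when the tested probes of a gene were averaged (BCL2A1 and FABP5, both lower, named after their values were seen). It was 0 without array 1, 3 or 4, and 15 without array 2. The fit within the scan day of 3 arrays is that same fit without array 2, so it is not a further alternative. No member was among the called probes. The median over the tested member genes, -0.32, became 0.33 when all arrays were read as treated in Cy5 and -0.16 with the scanner software's ratios or the authors' value table. In the first case CD3G probe 1 read 0.46, GZMB probe 1 read 0.21 and GZMB probe 2 stayed below 0, at -0.06. CD3G probe 1 read 0.0885 with both the scanner software's ratios and the authors' value table. Centring each array on its median in place of loess moved the median of all tested probes to 0.28. The median of the related genes became -0.10, or -0.38 relative to that. Those of the epithelial, endothelial and smooth muscle genes became 0.20, 0.01 and 0.04, or -0.08, -0.27 and -0.24 relative to it. Under this centring 14 of 14 member probes were below 0 in the fit over all probes, against 49.8% of all probes. The median was then 0.0016 over all probes and 0.28 over the tested ones, so ratios differed with signal. Most members were too dim to be tested, and the 49.8% is not matched to them for signal. CD3G probe 2, both CD4 probes and CD8A probe 2 changed sign under some settings, while GZMB, CD2, CD3D, CD3E, GZMA and CD8A probe 1 stayed below 0 under the 9 settings of background, normalisation and left-out arrays. Every ratio sets the treated against the untreated culture of 1 array, so the fit is paired by array and no further block was used. Dim Cy3 signals limit all members but GZMB.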

Other observations

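Some related genes also differed widely in level between arrays. After scaling, the mean log2 level of the death ligand TNFSF10 was 8.93, 11.15, 9.69 and 10.97 on arrays 1 to 4, a range of 2.22. That of CCL5 was 13.09, 14.87, 13.12 and 13.88, a range of 1.78, and that of the NK receptor KLRK1 was 7.95, 9.61, 9.02 and 9.02, a range of 1.66. All 3 were highest on array 2 and lowest on array 1, as were both GZMB probes. After scaling, 31.8% of all probes were highest on array 2. The levels of these 3 genes without scaling were not looked at. IL18 ran the other way, at 10.99, 9.57, 10.68 and 9.77. These genes were picked after their values were seen, and the median range of a tested probe was 0.78.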
